A study of Mus musculus with 12 samples.

Results

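The genes described here are 42 enzymes, carriers and signalling proteins of fatty acid oxidation, ketone body metabolism and the PPAR-alpha response, taken by gene symbol from a table of liver expression. All 42 symbols were found among the 24475 rows of the table. With a mean of at least 0.5 RPKM (reads per gene, adjusted for the length of the gene and the size of the library) over the 12 libraries required, 41 of them were among the 11347 genes tested, and Acot3 was not. By location or role, 19 of the 41 were mitochondrial, 12 peroxisomal and 2 ketogenic (Bdh1 and Acat1), and the other 8 were the receptor Ppara, secreted proteins, membrane proteins and cytosolic enzymes. The 2 ketogenic genes also encode mitochondrial enzymes, but they are counted apart and are not in the mitochondrial counts. Acot3 had a mean of 0.332 RPKM, just under the limit, and Fgf21 was the member just inside it, at 0.927 RPKM.

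The study set fed wild-type mice (WT, 6 libraries, numbered 1 to 6) against fed mice of the genotype labelled Gcg KO (6 libraries, numbered 7 to 12), in whole liver, to ask how loss of glucagon alters liver zonation. Gcg encodes the precursor of glucagon and of the glucagon-like peptides, so a mouse without it lacks all of them. The labels give no allele, strain, sex or age, and do not state that each library came from its own animal, so the p-values cover only the variation among these libraries, which may be technical. In a whole-liver sample, fewer cells of a type and less RNA per cell cannot be told apart.

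Fatty acids reach energy production in the hepatocyte by a chain of steps. They are taken up and activated to acyl-CoA, carried into mitochondria as carnitine esters, and shortened there by repeated cycles of beta-oxidation, whose electrons pass through the electron transfer flavoprotein. Very long chains and dicarboxylic acids are shortened first in peroxisomes. In fasting, much of the acetyl-CoA becomes ketone bodies, which the liver exports. PPAR-alpha is the nuclear receptor that binds fatty acids and switches on most of these genes, and glucagon, acting through cAMP, is known as a fasting signal that favours the same pathway.

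Pex11a, Slc27a2, Ucp2 and Vnn1 rose in Gcg KO liver, and the enzymes of mitochondrial beta-oxidation among the members did not pass the test in either direction. Differences were tested with limma on log2(RPKM + 0.5), with Benjamini-Hochberg adjustment over the 11347 genes and a threshold of 0.05; fold changes and log2 fold changes are on that scale, Gcg KO over WT, with the model's standard error (SE). The 4 that rose are 9.76% of the 41 members, where 1.95% of all tested genes rose. By limma, 0 members fell, where 1.92% of all tested genes did, and 3.87% of tested genes passed in either direction. At an unadjusted p under 0.05, 10 members were higher and 3 lower (Etfb, Cpt1a and Cpt2), 31.7% of the members, where 15.7% of all tested genes had such a p (993 higher and 790 lower of 11347). The exact permutation test also gave 10 and 3, with Slc27a4 in the place of Pdk4. Both counts of 10 include Fgf21, which was tested only through its level in Gcg KO (below). The median log2 fold change was 0.10 over the members and 0.01 over all tested genes. Since the members were chosen with earlier results of these data known, their share is a description and not independent evidence.

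**Figure D1:**
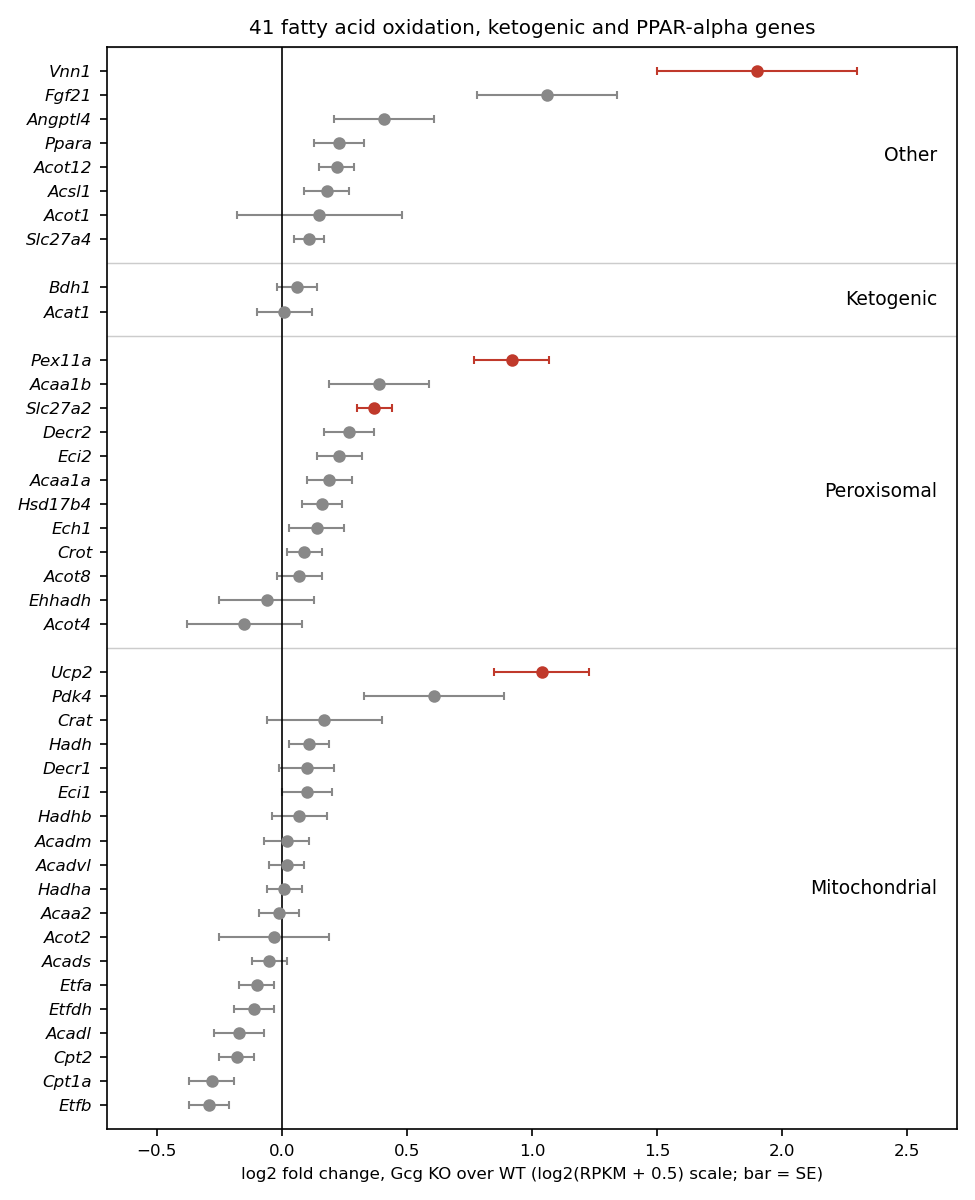
Log2 fold change of each of the 41 measured members, Gcg KO over WT, with its SE as a bar, grouped by location. Red points (Vnn1, Pex11a, Slc27a2 and Ucp2) passed the adjusted threshold, and grey points, which include all other mitochondrial and both ketogenic genes, did not.

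The promoters of the members are shown first, because PPAR-alpha binds a known sequence and glucagon signals through cAMP. RefSeq promoter windows (GRCm38.p6, 250 bases before to 50 after the start) were at hand for 35 of the 42 members. Vnn1 and Angptl4 were among those without a window, and sequence outside the windows was not searched. Each window was searched on both strands for the direct repeat bound by PPAR-alpha, which is 2 copies of AGGTCA with 1 base of any kind between them, and for a relaxed form that allows any base at the fourth position of each copy and so includes every match of the strict one. No member window held either. Of all 27025 genes with a window, 0.0481% held the strict form and 0.451% the relaxed form. With shares that small, 0 of 35 cannot tell the members from other genes. The single hexamer AGGTCA, which is part of the repeat, was in 7 member windows (20.0%) and in 18.1% of all. TGACG, the core of the cAMP response element TGACGTCA, was in 8 member windows (22.9%) and in 23.0% of all, and the full TGACGTCA was in no member window and in 2.03% of all. The stretches below are 5′ to 3′ on the strand of the gene, with the match in capitals; a match on the opposite strand appears as its complement, TGACCT or CGTCA. The Pex11a window holds neither AGGTCA nor TGACG, so its 120 bases before the start carry no capitals. Members that were not called also held these letters and are not printed. AGGTCA was in the windows of Acadm, Acadvl, Acot12, Acot3, Acot4 and Cpt1a. TGACG was in those of Acadm, Acot2, Ehhadh, Etfa, Etfdh and Ppara. A match is a run of letters and not a measured binding site.
Pex11a, chr7:79743132-79743251, minus strand: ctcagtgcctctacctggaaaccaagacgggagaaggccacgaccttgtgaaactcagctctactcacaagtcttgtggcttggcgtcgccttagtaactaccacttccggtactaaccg
Ucp2, chr7:100493238-100493327, plus strand: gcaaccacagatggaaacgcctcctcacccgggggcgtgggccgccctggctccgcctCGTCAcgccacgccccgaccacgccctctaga
Slc27a2, chr2:126552792-126552821, plus strand: gcaccacgccttTGACCTtttcaacgtggg
Fgf21, chr7:45615542-45615570, minus strand: tcaaatatcacgCGTCAggagtggggagg

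Among the regulator Ppara and the secreted and membrane-bound outputs Vnn1, Fgf21 and Angptl4, 1 gene was called, where 3.87% of all tested genes were called. Ppara (chromosome 15, 85734910 to 85806851), the receptor itself, ran from 25.0 through a median of 30.3 to 37.3 RPKM in WT and from 31.4 through 35.7 to 43.7 in Gcg KO. The groups overlap, although all 6 Gcg KO libraries lie above the WT mean of 30.9. Its log2 fold change was 0.23 ± 0.10 (SE), with a 95% interval of 0.02 to 0.45, and did not pass (adjusted p = 0.267).

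Vnn1 encodes pantetheinase, a membrane enzyme that frees cysteamine and is a well-known PPAR-alpha target. It ran from 2.14 through 4.42 to 17.7 RPKM in WT and from 15.3 through 19.9 to 28.5 RPKM in Gcg KO. WT 6 is the high library of its group, and 5 of 6 Gcg KO libraries lie above it. The mean went from 6.88 ± 6.01 to 21.4 ± 5.07 RPKM (SD, n = 6 each), a log2 fold change of 1.90 ± 0.40 and a 3.72-fold rise (adjusted p = 0.0179). Without WT 6 the Vnn1 log2 fold change was 2.23 (adjusted p = 0.00122).

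Fgf21, a hormone that the liver releases in fasting and under amino acid shortage, was the lowest of the 41 tested members. Its WT values ran from 0.0899 through 0.344 to 0.779 RPKM and its Gcg KO values from 0.514 through 1.6 to 2.79 RPKM. On its single annotated transcript of 951 bases these are about 1 to 9 reads in the WT libraries and 5 to 35 reads in the Gcg KO libraries, so counting error is large. Gcg KO 10 and Gcg KO 12, at 0.540 and 0.514 RPKM, overlap the WT range, and the other 4 Gcg KO libraries lie above it. Fgf21 had a log2 fold change of 1.06 ± 0.28 and narrowly missed the threshold (adjusted p = 0.0552). Its WT mean of 0.390 RPKM lay under the limit of 0.5, and its Gcg KO mean was 1.46 RPKM. It was therefore tested only through the group where it is higher, which limits what its test can show. With no filter on low values its adjusted p was 0.106.

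WT 6, Gcg KO 10 and Gcg KO 12 stand apart from the other libraries in several metabolic genes. Igfbp1, a secreted protein that binds insulin-like growth factors, was at 6.22, 14.2 and 9.35 RPKM in them and at 159 RPKM or more in the other 9. Each of these 3 libraries had the lowest or the second lowest Fgf21 value of its group. Leaving out only Gcg KO 10 or only Gcg KO 12, Fgf21 passed (log2 fold change 1.22 in each, adjusted p = 0.0272 and 0.0256); these are the Gcg KO libraries with the lowest Fgf21. Leaving out any 1 of the other 10 libraries gave no call for Fgf21, with log2 fold changes down to 0.88 (without Gcg KO 7) and adjusted p-values up to 0.121 (without Gcg KO 9), and 4 of 22 alternatives called it. Without all 3 libraries it passed as well (log2 fold change 1.35, adjusted p = 0.00307, 5 WT and 4 Gcg KO libraries). Leaving out Gcg KO 10 and Gcg KO 12, the lowest of their group, raises the Fgf21 fold change by itself. Leaving out WT 6, the lowest WT library, lowers it (log2 fold change 0.95 without WT 6 alone). In that smaller comparison the members that passed were Fgf21, Vnn1, Slc27a2, Ucp2 and Pex11a, higher, and Etfb, lower, where 1.15% of all genes were higher and 1.52% lower. What sets the 3 libraries apart was not tested.

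Angptl4, an inhibitor of lipoprotein lipase induced in fasting, ran from 34.3 through 64.1 to 79.1 RPKM in WT and from 57.1 through 76.8 to 116 in Gcg KO. The groups overlap, with WT 6 and Gcg KO 12 lowest in each, and the log2 fold change of 0.41 ± 0.20 did not pass (adjusted p = 0.355).

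**Figure D2:**
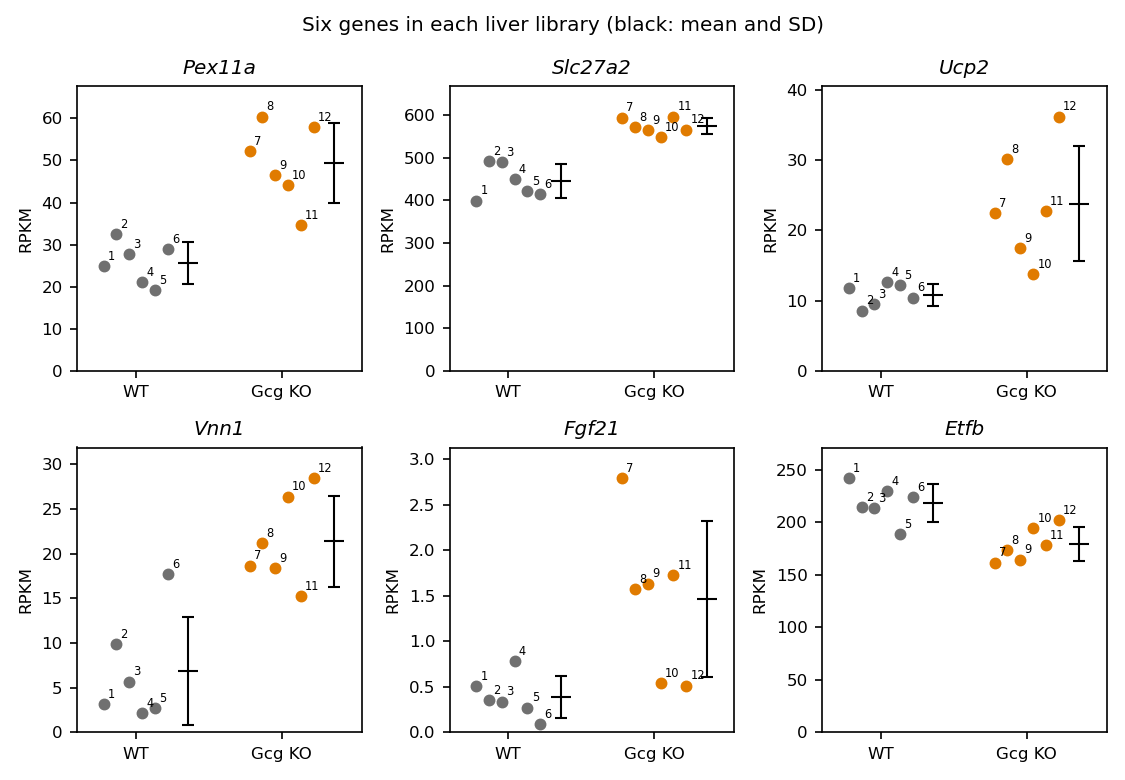
RPKM of 6 genes in each WT (grey) and Gcg KO (orange) library, 1 numbered point per library, with the group mean and SD in black beside the points. Every Gcg KO point is above every WT point for Pex11a, Slc27a2 and Ucp2, WT 6 reaches the Gcg KO range for Vnn1, and Gcg KO 10 and 12 reach the WT range for Fgf21.

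Uptake and activation came next in the chain. Slc27a2 (chromosome 2, 126553024 to 126588243) encodes FATP2, a transporter and very long chain acyl-CoA synthetase of the cell surface, endoplasmic reticulum and peroxisome, and is among the members highest in liver. It ran from 399 through 436 to 492 RPKM in WT and from 547 through 568 to 596 RPKM in Gcg KO. The groups do not overlap, and the Gcg KO libraries are close to each other. The mean went from 445 ± 39.8 to 573 ± 18.8 RPKM, a log2 fold change of 0.37 ± 0.07 and a 1.29-fold rise (adjusted p = 0.00523). Slc27a4, another fatty acid transport protein, had 8.69 ± 0.537 and 9.43 ± 0.449 RPKM (adjusted p = 0.385). Acsl1, the main long chain acyl-CoA synthetase of liver, had 305 ± 34.7 and 345 ± 37.0 RPKM (adjusted p = 0.366).

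The carnitine step gave no call among 4 genes, where 3.87% of all tested genes were called, and its members did not share a direction. Cpt1a, the outer membrane transferase that controls entry into mitochondria, ran from 65.0 through 74.2 to 84.5 RPKM in WT and from 54.6 through 59.7 to 79.4 RPKM in Gcg KO. In Gcg KO, 5 of 6 libraries lie below the lowest WT library, and Gcg KO 11 lies within the WT range. The log2 fold change was -0.28 ± 0.09 (95% interval -0.49 to -0.08) and did not pass (adjusted p = 0.134). Without Gcg KO 11 the Cpt1a log2 fold change was -0.36, and it passed (adjusted p = 0.0174).

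Cpt2, the inner membrane transferase that remakes acyl-CoA in the matrix, had 55.8 ± 5.14 RPKM in WT against 49.1 ± 3.43 in Gcg KO, with all 6 Gcg KO libraries below the WT mean. Its log2 fold change of -0.18 ± 0.07 did not pass (adjusted p = 0.225). Crat, carnitine acetyltransferase, had 7.22 ± 1.81 and 8.36 ± 2.51 RPKM, and Crot, the carnitine octanoyltransferase of peroxisomes, 266 ± 23.9 and 283 ± 17.1 RPKM; their adjusted p-values were 0.799 and 0.610. Crat was lowest in WT 5 and in Gcg KO 11, at 4.21 and 3.76 RPKM.

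The mitochondrial beta-oxidation enzymes among the members gave no call in either direction. Acad12, an acyl-CoA dehydrogenase family gene outside the members, rose (below). The members include 8 enzymes of the spiral. Acadvl, Acadl, Acadm and Acads are the acyl-CoA dehydrogenases for very long, long, medium and short chains. Hadha and Hadhb are the trifunctional protein subunits, Hadh is the short chain hydroxyacyl-CoA dehydrogenase and Acaa2 is a thiolase. With Eci1 and Decr1, which prepare unsaturated chains, these 8 had log2 fold changes between -0.17 and 0.11. Of the 10 genes, 0 passed limma, with 0 at an unadjusted p under 0.05. Of all tested genes 3.87% passed and 15.7% had such a p, so 0 calls among 10 genes is close to the share of all genes. The 95% intervals of these 10 reached no lower than -0.39 (Acadl) and no higher than 0.34 (Decr1). Acaa2 was the highest of them, at 434 ± 45.3 RPKM in WT against 431 ± 35.9 in Gcg KO. Hadha had 119 ± 10.6 and 119 ± 8.66 RPKM, with a 95% interval of the log2 fold change from -0.14 to 0.16. Acadl had the lowest fold change of the 10, at 74.1 ± 10.1 and 65.8 ± 8.92 RPKM (adjusted p = 0.487). Hadhb shares 19.7% of its 50-base windows with transcripts of other genes, so its level is less certain.

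The 3 electron transfer genes were all lower in mean, and none passed, where 3.87% of all tested genes were called. Etfb, the beta subunit of the flavoprotein that takes electrons from the acyl-CoA dehydrogenases, ran from 189 through 219 to 242 RPKM in WT and from 162 through 176 to 202 RPKM in Gcg KO. Here 4 of 6 Gcg KO libraries lie below the lowest WT library, WT 5. The log2 fold change was -0.29 ± 0.08 (95% interval -0.45 to -0.13), and the adjusted p of 0.0509 lay at the threshold: 7 of 23 alternatives called it, among them leaving out WT 5 (log2 fold change -0.33, adjusted p = 0.0271) and leaving out Gcg KO 12 (-0.32, adjusted p = 0.0362). Of the 50-base windows of Etfb, 44.8% also occur in transcripts of other genes, mainly an unnamed gene model, so its value is uncertain. Etfa, the alpha subunit, had 182 ± 14.3 and 170 ± 15.4 RPKM (adjusted p = 0.596). Etfdh, the dehydrogenase that hands the electrons to ubiquinone, had 117 ± 13.8 and 108 ± 6.13 RPKM (adjusted p = 0.561).

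Ucp2 (chromosome 7, 100493337 to 100499629), a carrier of the mitochondrial inner membrane, was the mitochondrial member that passed. It ran from 8.57 through 11.1 to 12.6 RPKM in WT and from 13.8 through 22.6 to 36.2 RPKM in Gcg KO. The groups do not overlap, and the Gcg KO libraries are widely spread, with Gcg KO 10 lowest and Gcg KO 12 highest. The mean went from 10.8 ± 1.59 to 23.8 ± 8.2 RPKM, a log2 fold change of 1.04 ± 0.19 and a 2.06-fold rise (adjusted p = 0.00765). Ucp2 is also expressed in macrophages. The summed level of 5 Kupffer cell markers was 50.7 to 94.1 RPKM in WT and 61.6 to 98.6 in Gcg KO, and 0 of the 5 passed limma. Which cells carried the Ucp2 difference was not tested.

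Pdk4, the kinase that shuts off pyruvate dehydrogenase when fat is burned, ran from 2.29 through 3.20 to 5.77 RPKM in WT and from 3.51 through 5.51 to 12.2 RPKM in Gcg KO. Gcg KO 9 alone is far above the rest, and the log2 fold change of 0.61 ± 0.28 did not pass (adjusted p = 0.302). Of the 19 mitochondrial members, which leave out the 2 ketogenic genes, 1 rose, 0 fell and 18 did not pass. That is 5.26% called, against 3.87% of all tested genes, and the median log2 fold change was 0.01. At an unadjusted p under 0.05, 2 were higher and 3 lower (26.3%, against 15.7% of all tested genes).

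Of the 12 peroxisomal members 2 rose, Slc27a2 (above) and Pex11a, and 0 fell, where 1.95% of all tested genes rose and 1.92% fell. Slc27a2 was counted as peroxisomal, although its protein is also found at the cell surface and in the endoplasmic reticulum. Slc27a4 and Acsl1, of the same step, were counted as membrane proteins, so the count of 2 depends on this choice. Of the 12, 10 had a positive log2 fold change, where 10 of 19 mitochondrial members did. Pex11a (chromosome 7, 79735957 to 79743131) encodes a membrane protein that elongates and divides peroxisomes. It ran from 19.2 through 26.3 to 32.5 RPKM in WT and from 34.7 through 49.3 to 60.4 RPKM in Gcg KO. The groups do not overlap, and Gcg KO 11 is the lowest of its group. The mean went from 25.7 ± 5.01 to 49.3 ± 9.52 RPKM, a log2 fold change of 0.92 ± 0.15 and a 1.90-fold rise (adjusted p = 0.00282), the smallest adjusted p among the members. With Slc27a2 and Ucp2 it was 1 of 3 members in which every Gcg KO library exceeded every WT library, as did 1.6% of all tested genes.

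The peroxisomal thiolases, bifunctional proteins and double bond enzymes among the members did not pass. Acaa1b, a peroxisomal thiolase, ran from 311 through 421 to 605 RPKM in WT and from 349 through 626 to 724 RPKM in Gcg KO. Its groups overlap because WT 2 and WT 6 are high and Gcg KO 11 is low, and the log2 fold change of 0.39 ± 0.20 did not pass (adjusted p = 0.392). Its close copy Acaa1a had 81.6 ± 10.1 and 93.1 ± 10.1 RPKM (adjusted p = 0.337). Of the 50-base windows of Acaa1b, 30.5% also occur in Acaa1a, so how reads were divided between them affects both values.

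Hsd17b4, the D-bifunctional protein, had 146 ± 18.4 and 163 ± 10.5 RPKM (adjusted p = 0.389). Ehhadh, the L-bifunctional protein, had 83.6 ± 21.6 and 80.5 ± 22.8 RPKM (log2 fold change -0.06 ± 0.19, adjusted p = 0.934). Among the enzymes for double bonds, Decr2 had 75.5 ± 8.92 and 91.6 ± 12.6 RPKM (adjusted p = 0.177), Eci2 had 90.1 ± 10.4 and 105.8 ± 12.03 RPKM (adjusted p = 0.216) and Ech1 had 166 ± 27.9 and 183 ± 20.8 RPKM (adjusted p = 0.613). For Decr2 and Eci2 all 6 Gcg KO libraries lie above the WT mean, but 3 and 2 of them overlap the WT range. Over the 12 peroxisomal members the median log2 fold change was 0.18 and 10 of 12 were positive, against 54.3% of all tested genes. In the list of 21 other peroxisomal oxidation genes (below), the median was -0.01 and 10 were positive. Scaling each library by its median ratio to the mean library gave medians of 0.16 for the peroxisomal and -0.01 for the mitochondrial members. The difference between both locations was not tested.

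The acyl-CoA thioesterases, which release free fatty acids from CoA, gave no call among 5 measured genes, where 3.87% of all tested genes were called. Acot12, a cytosolic acetyl-CoA hydrolase, had 34.2 ± 3.07 and 39.9 ± 2.92 RPKM, with all 6 Gcg KO libraries above the WT mean (log2 fold change 0.22 ± 0.07, adjusted p = 0.112). Without WT 2 its log2 fold change was 0.26, and it passed (adjusted p = 0.0475). Acot8, a peroxisomal thioesterase, had 8.59 ± 0.990 and 9.08 ± 1.10 RPKM (adjusted p = 0.786). Acot1, Acot2, Acot3 and Acot4 lie next to each other on chromosome 12 and share sequence, with 27.7% of the 50-base windows of Acot2 found in other genes, so reads may be split among them. Cytosolic Acot1 had 10.8 ± 4.5 and 12.3 ± 4.65 RPKM, mitochondrial Acot2 had 1.59 ± 0.534 and 1.57 ± 0.704, and peroxisomal Acot4 had 5.19 ± 1.53 and 4.67 ± 1.47. Acot3 had 0.101 to 0.906 RPKM in WT and 0 to 0.841 RPKM in Gcg KO. Each of the 3 that were tested had an adjusted p of at least 0.824.

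Neither ketogenic member passed limma, and neither had an unadjusted p under 0.05, where 3.87% and 15.7% of all tested genes did. Bdh1, which interconverts acetoacetate and beta-hydroxybutyrate, ran from 40.6 through 46.5 to 55.8 RPKM in WT and from 44.8 through 48.1 to 57.0 RPKM in Gcg KO. The ranges overlap almost wholly, and the log2 fold change was 0.06 ± 0.08 (95% interval -0.11 to 0.24, adjusted p = 0.797). Acat1, the mitochondrial thiolase that joins 2 acetyl-CoA, ran from 122 through 140 to 160 RPKM in WT and from 112 through 138 to 168 RPKM in Gcg KO. Here too the groups overlap, with a log2 fold change of 0.01 ± 0.11 (95% interval -0.22 to 0.24, adjusted p = 0.976).

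In WT liver the mean level of the members spanned 0.390 to 450 RPKM, a scale per gene length on which genes can be compared. Acaa1b (450 ± 123 RPKM), Slc27a2 and Acaa2 led, and their ranges over the 6 libraries overlap. The next gene, Acsl1, lay wholly below Acaa2. Of the 41 members, 15 had at least 100 RPKM in WT, 18 had 10 to 100, and 8 had less than 10. Going down the order, 35 of 40 neighbouring pairs overlap in range, so the exact order within each stretch is not settled by 6 libraries. Vnn1, Fgf21, Acot1 and Pdk4 varied most within WT, with coefficients of variation of 87.4%, 60.02%, 41.5% and 39.1%, and the median over the members was 12%, against 13.6% over all tested genes. Together the members held 0.736% of the summed RPKM in WT and 0.806% in Gcg KO.

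**Figure D3:**
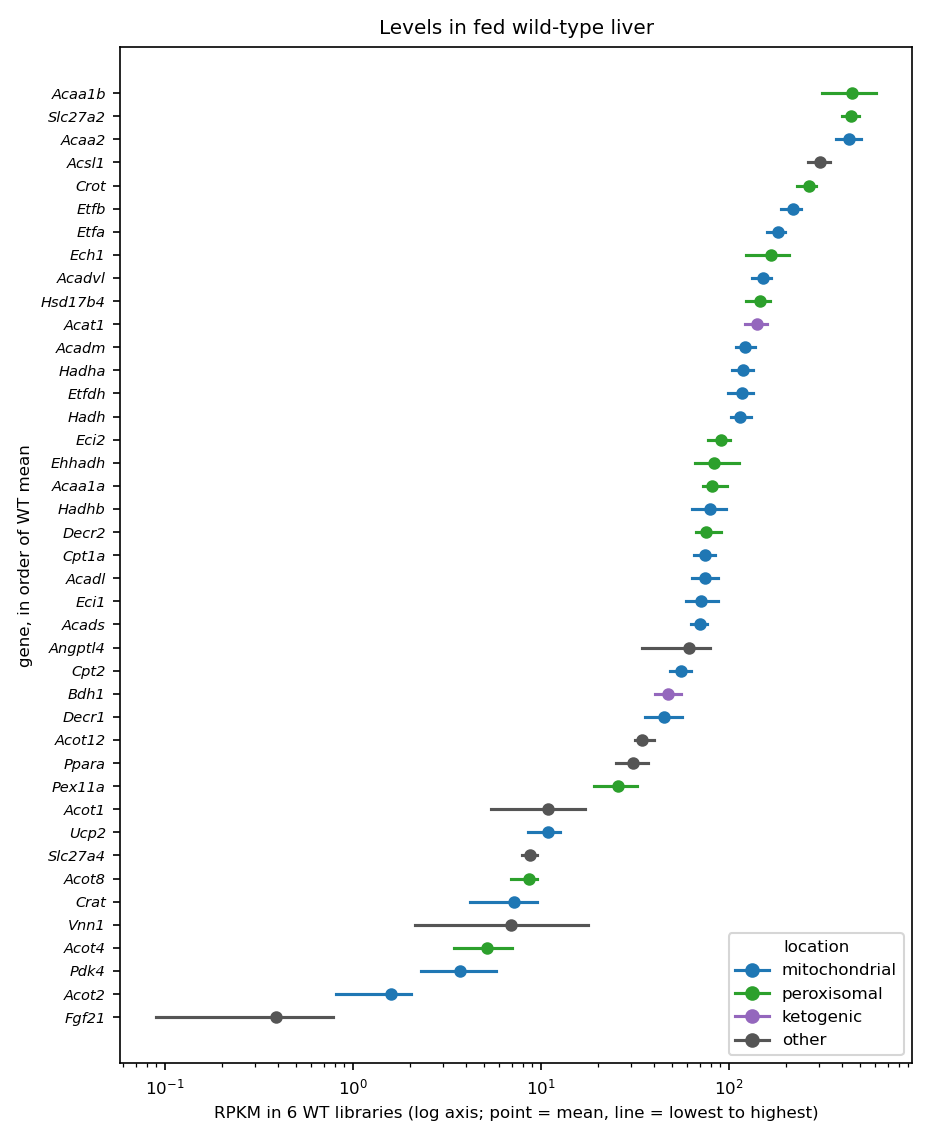
Level of each measured member in the 6 WT libraries, as mean (point) and lowest to highest value (line), on a log axis of RPKM and in order of the mean, coloured by location. Acaa1b, Slc27a2 and Acaa2 are highest at 434 to 450 RPKM, and Fgf21 is lowest at 0.390 RPKM.

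Libraries also differed from each other across the members within a genotype. WT 5 was the lowest of the 6 WT libraries for 23 of 41 members (56.1%) and for 23.2% of all tested genes. In Gcg KO, library 11 was the lowest for 24 of 41 members (58.5%) and for 30.8% of all genes, while Gcg KO 12 was the highest for 21 members (51.2%) and for 33.0% of all. After median-ratio scaling WT 5 was lowest for 20 members (48.8%, against 18.0% of all genes) and Gcg KO 11 for 15 (36.6%, against 20.7%). Gcg KO 12 was then highest for 8 members (19.5%, against 15.2%), so both Gcg KO shares depend on the scaling.

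**Figure D4:**
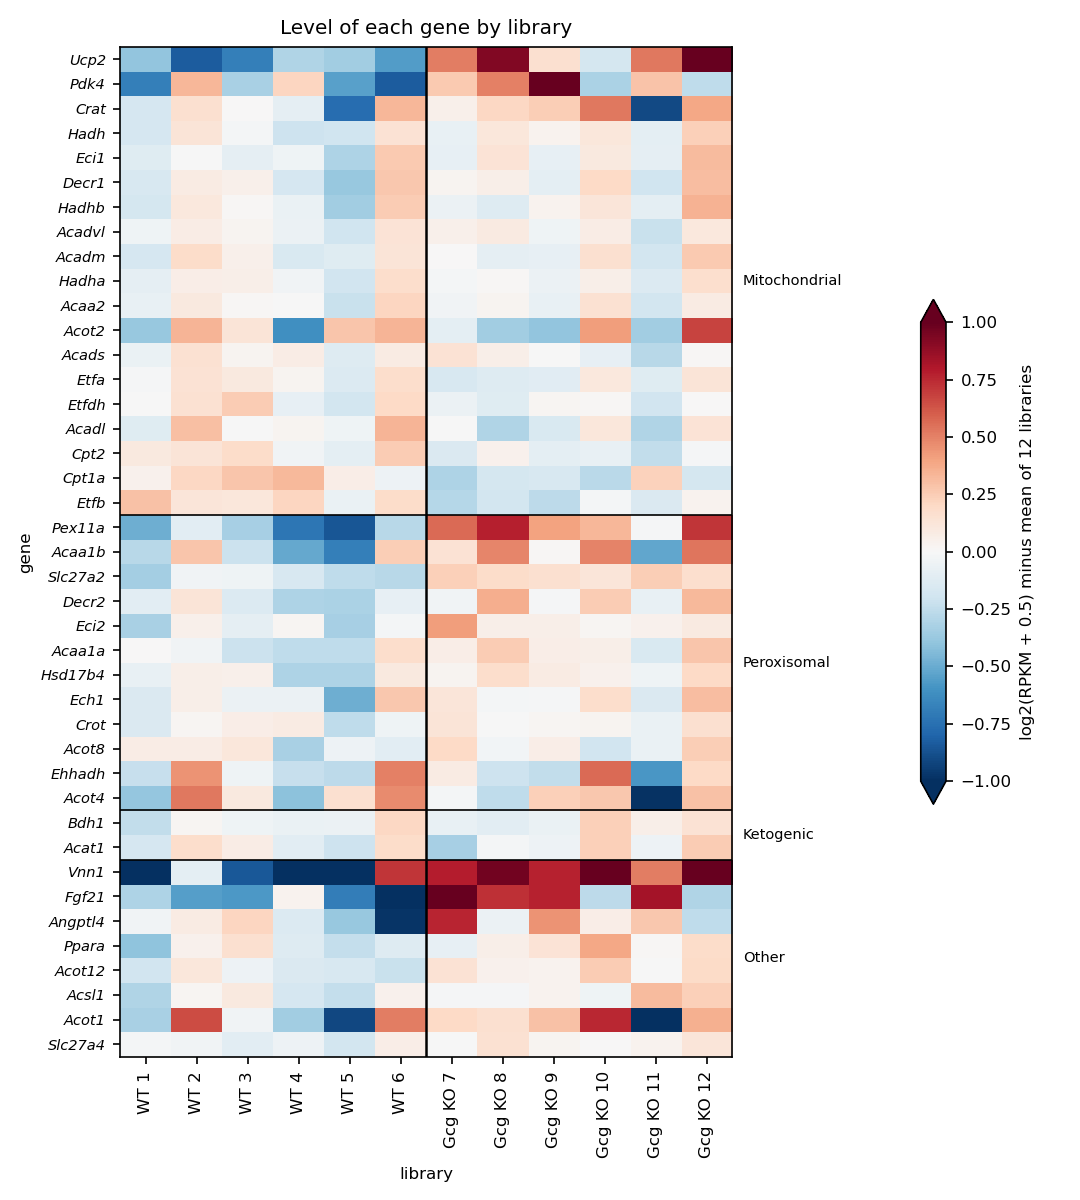
Log2(RPKM + 0.5) of each measured member in each library, minus its mean over the 12 libraries, with red above and blue below the mean, WT left and Gcg KO right of the line. Pex11a, Slc27a2 and Ucp2 separate the genotypes without overlap, whereas WT 5 and Gcg KO 11 are pale to dark blue for most oxidation enzymes, and Acot1, Acot4 and Ehhadh vary between libraries of both genotypes.

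Some known PPAR-alpha targets among the members varied between libraries of the same genotype, and not all in the same libraries. Ehhadh was at 109 and 113 RPKM in WT 2 and WT 6 and at 66.2 to 77.5 in the other 4 WT libraries, and in Gcg KO it ran from 53.0 in library 11 to 118 in library 10. Acot1 was also highest in WT 2 and WT 6, at 17.1 and 15.4 RPKM, and in Gcg KO 10, at 18.3. Cyp4a14 and Cyp4a10, fatty acid omega-hydroxylases outside the 42 that were chosen after their values were seen, followed the same libraries over a wider range. Cyp4a14 was at 68.8 and 55.2 RPKM in WT 2 and WT 6 and at 0.552 to 4.99 in the other WT libraries, and it was at 68.3, 100.2 and 50.7 RPKM in Gcg KO 7, 10 and 12 and at 2.84 to 9.36 in the other 3. It did not pass between genotypes (log2 fold change 1.61 ± 1.13, adjusted p = 0.558). Vnn1 was highest among WT in WT 6 and next in WT 2, at 17.7 and 9.86 RPKM, yet it was at 15.3 to 21.2 RPKM in Gcg KO 8, 9 and 11, where Cyp4a14 was at 9.36 RPKM or less. Fgf21, Angptl4 and Pdk4 instead had their lowest WT value in WT 6. In Gcg KO, Fgf21 and Angptl4 were lowest in library 12, and Pdk4 was lowest in library 10.

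**Figure D5:**
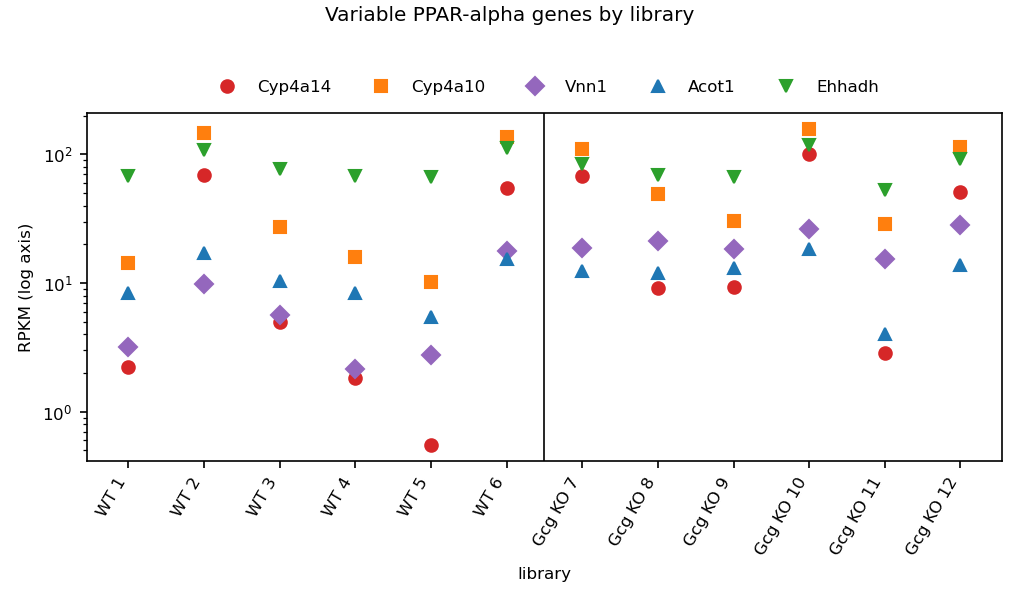
RPKM, on a log axis, of Cyp4a14, Cyp4a10, Vnn1, Acot1 and Ehhadh in each of the 12 libraries, WT left and Gcg KO right of the line. Cyp4a14 exceeds 50 RPKM in WT 2, WT 6 and Gcg KO 7, 10 and 12 and is below 10 RPKM in the other 7, while Vnn1 is higher in Gcg KO.

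Other genes of the same pathways were counted from lists chosen by function, with earlier results of these data known. Of 118 tested, 4 rose, 2 fell and 112 did not pass (5.08% called, near the 3.87% of all tested genes), with a median log2 fold change of 0.03. At an unadjusted p under 0.05 in limma, 18 were higher and 9 lower (22.9%, against 15.7% of all tested genes). Among ketone body genes 0 of 9 passed limma, and 3 had an unadjusted p under 0.05, 2 higher and 1 lower, both in limma and in the exact permutation test. Of all tested genes 3.87% were called and 15.7% had such a p.

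In the other peroxisomal oxidation list, 1 of 21 rose and 0 fell. That gene was Acox3, an acyl-CoA oxidase of branched chains, which went from 7.49 ± 0.893 to 10.6 ± 1.51 RPKM (log2 fold change 0.47 ± 0.10, adjusted p = 0.0163). The list had a median log2 fold change of -0.01, with 10 genes positive and 11 negative. At an unadjusted p under 0.05 in limma, 2 of its genes were higher and 4 lower (28.6%, against 15.7% of all tested genes). The exact permutation test gave 3 higher and 5 lower. Of 20 peroxisome assembly and membrane genes, 0 rose and 1 fell, the membrane channel protein Pxmp2, from 85.8 ± 9.75 to 62.7 ± 10.02 RPKM (adjusted p = 0.0323). Of 22 other mitochondrial oxidation genes, 1 rose, the acyl-CoA dehydrogenase family gene Acad12, from 2.41 ± 0.250 to 3.47 ± 0.366 RPKM (adjusted p = 0.00768). The share called was 4.76% for other peroxisomal oxidation, 5.0% for peroxisome assembly and 4.55% for other mitochondrial oxidation. These shares are near the 3.87% of all tested genes. Without WT 6, Gcg KO 10 and Gcg KO 12, Pxmp2 and Acad12 did not pass (adjusted p = 0.0961 and 0.0665). Pxmp2 also lost its call when any 1 of WT 1, WT 3, WT 5 or Gcg KO 7, 9 or 12 was left out (largest adjusted p = 0.0738).

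Partners and cofactors of PPAR-alpha gave 0 calls in 22 tested, with 4 at an unadjusted p under 0.05 in limma and 4 in the exact permutation test. These 4 are 18.2% of the list, near the 15.7% of all tested genes, of which 3.87% were called. Ppargc1a, the fasting coactivator of PPAR-alpha, was named after its values were seen. It had 2.74 ± 1.42 RPKM in WT against 1.07 ± 0.611 in Gcg KO (log2 fold change -1.01 ± 0.28, adjusted p = 0.0638). Of 30 other PPAR-alpha targets, 2 rose (6.67%) and 1 fell, where 1.95% of all tested genes rose and 1.92% fell. At an unadjusted p under 0.05, 9 were higher and 3 lower, both in limma and in the exact permutation test. These 12 are 40.0% of the list, against 15.7% of all tested genes. The list had a median log2 fold change of 0.17, against 0.01 over all tested genes. Positive values were found for 20 of the 30, against 54.3% of all tested genes. Txnip, a thioredoxin-binding protein also induced by glucose, went from 19.4 ± 11.8 to 62.5 ± 34.4 RPKM (log2 fold change 1.70 ± 0.40, adjusted p = 0.0301), with overlapping groups. Txnip lost its call when any 1 of WT 1, 2 or 3 or Gcg KO 7, 8 or 9 was left out (largest adjusted p = 0.0755). Cidec, a lipid droplet protein, went from 0.518 ± 0.206 to 2.19 ± 1.38 RPKM (1.30 ± 0.26, adjusted p = 0.0125), and did not pass without the 3 libraries (adjusted p = 0.0751). Its WT values of 0.252 to 0.820 RPKM are low, so the size of its rise is uncertain. Over the alternatives the Cidec log2 fold change ran from 0.99 to 1.78. Cyp4f15, a fatty acid hydroxylase, fell from 54.2 ± 3.47 to 39.0 ± 3.76 RPKM (-0.47 ± 0.07, adjusted p = 0.00149).

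Cell type markers and depth were checked once for all of these results. Each library held about 10300000 to 15000000 reads, estimated from the smallest steps in the table, and 0 pairs of libraries were identical. Gcg was at 0 RPKM in all 12 livers, WT included, so it checks no label. The summed level of 5 hepatocyte markers was 46118 to 60512 RPKM in WT and 45380 to 55320 in Gcg KO. Markers of stellate cells, cholangiocytes, neutrophils and T cells overlapped between groups in their summed level, and of these lists 1 gene passed, the stellate cell marker Rgs5. Of the T cell markers 0 of 4, of the cholangiocyte markers 2 of 4 and of the neutrophil markers 3 of 4 were high enough to be tested. Sinusoidal endothelial markers summed to 46.7 to 62.6 RPKM in WT and 52.6 to 81.7 in Gcg KO, and 1 of 5, Lyve1, rose. The adipocyte list was higher in Gcg KO, at 2.45 to 28.0 RPKM against 0.0862 to 0.882, through Cfd alone, and its other 4 genes (Adipoq, Plin1, Lep and Retn) were at 0.146 RPKM or less in every library. The part of these cell types in the members' results was not tested.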

How the data were processed

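The authors deposited 1 table of RPKM values, a column for each of the 12 liver libraries. CASAVA 1.8.2, FastQC and the build GRCm38 are listed in the submitters' processing notes. For the aligner, counting tool and annotation, no name is given in the sources used here. Libraries were made from polyadenylated RNA with a strand-specific kit, per the labels' protocols.

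Genes with a mean of at least 0.5 RPKM were tested on log2(RPKM + 0.5) with limma 3.58.1 (R 4.3.3, mean-variance trend, no covariate), adjusted over all genes tested; the procedure was tested on simulated data. The exact permutation test used 924 arrangements. Depth was estimated from the step of 1 read in RPKM times length over genes with 1 GENCODE transcript. About 49.9% to 54.1% of low values lay within 0.05 of a whole read, so no count test was run. Shared 50-base windows were counted in GENCODE transcripts. Members and lists were chosen with earlier results of these data known. Every member is named, and up to 4 called genes per other list; other genes were chosen after their values were seen. The alternatives were other pseudocounts, filters and scalings, other limma settings, leaving out libraries, and the exact permutation test. Some items of these lists are not reported here.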

Additional observations from a re-analysis of the deposited data

Results flagged for a closer look

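Among 82 sets of 6 libraries (41 members in each genotype), 3 held a library whose gap to its nearest neighbour was unusually large for its group by Dixon's criterion, where chance alone flags about 1 set in 20. Cpt1a was at 79.4 RPKM in Gcg KO 11, while the other 5 Gcg KO libraries lay between 54.6 and 60.3 RPKM. Pdk4 was at 12.2 RPKM in Gcg KO 9, against 3.51 to 6.58 RPKM in the other 5. Eci2 was at 130.1 RPKM in Gcg KO 7, against 98.7 to 103.2 RPKM in the other 5.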

How the results depend on the processing

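Pex11a, Slc27a2, Ucp2 and Vnn1 passed under 22 of 23 alternatives and lost their calls only in the exact permutation test, whose smallest adjusted p was 0.070 over all genes. With that test the counts of members higher, mitochondrial and peroxisomal members called, other pathway genes called and all genes called (higher and lower) were 0, while 13 members and 1749 genes had an unadjusted exact p under 0.05. Etfb was called lower, which made 1 member lower and 2 mitochondrial members called, at a mean RPKM of at least 2, with quantile normalization, with median-ratio scaling and without WT 6, Gcg KO 10 and Gcg KO 12. With array weights, Etfb and Cpt1a were lower (2 members lower, 3 mitochondrial members called) and Fgf21 was higher. Leaving out 1 library at a time gave 4 to 5 members higher, 0 to 1 lower, 1 to 2 mitochondrial members called, and 4 to 9 other pathway genes called. Over all genes it gave 280 to 472 calls, 136 to 262 higher and 144 to 210 lower (the lowest counts without WT 3, and 144 higher without Gcg KO 9), against 439, 221 and 218 in the full comparison. Without WT 6, Gcg KO 10 and Gcg KO 12, 131 genes were higher. Of the 41 members, 31 kept their sign under all 23 alternatives, and the 10 that changed it were never called. No paired analysis was possible because the libraries are numbered 1 to 12 with no number shared between genotypes. Depth limits Fgf21, at 1 to 35 estimated reads per library; reads of other members were not estimated.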
